A study of Mus musculus with 25 samples.

Results

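*Sprr1a*, *Atf3*, *Jun*, *Sox11*, *Gap43*, *Stmn4*, *Gal* and *Ecel1* are genes that neurons are known to induce, or to keep high, when an axon is injured and regrows. These 8 genes were taken by name from the 50559 genes of the count table, with earlier results of these data known. They were followed library by library in mRNA bound to the ribosomes of mouse spinal cord cholinergic neurons. All mice were C57BL/6J males, 6 mo old, kept under 12 h of light and 12 h of dark, and all carried *ChAT-Cre*, a Cre recombinase driven from the choline acetyltransferase locus, and *RiboTag* fx/+, which places a hemagglutinin (HA) tag on the ribosomes of Cre-expressing cells. *ChAT-BKO* mice were in addition *Bmal1* fx/fx, so that the clock activator BMAL1 was lost in cholinergic neurons, and controls (labelled wild-type) carried no floxed *Bmal1*. Spinal cords were collected at ZT8, in the light period, and at ZT20, in the dark period, from 6 mice per condition (4 conditions) and 1 cord per immunoprecipitation (IP), and 1 pooled input was made from both genotypes. Because Cre acted wherever *ChAT-Cre* was expressed, the IP was not restricted to 1 type of spinal cholinergic neuron. How fully each type was covered was not measured.

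When a peripheral axon is cut, stress kinases signal from the injury to the cell body, and transcription factors such as JUN, ATF3 and SOX11 are induced there. Their induction is followed by that of effectors that remodel the growth cone and its microtubules, such as GAP43, SPRR1A and the stathmins, and of peptides and enzymes such as galanin and ECEL1. Motor neurons, the largest cholinergic cells of the spinal cord, are among the neurons in which this program has been described, and several of its genes are also expressed at rest.

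Total counts ran from 4.04 to 31.7 M per IP library, and the input had 7.40 M. The 6 cholinergic neuron markers together ran from 3199 to 3903 CPM (counts scaled to library size, with TMM factors) over the 24 IP libraries, with a median log2 ratio of 2.92 over the input, whereas the markers of each of the other 11 cell types examined had a median below that of the input. *Arntl*, the gene of BMAL1, was at 8.44 ± 1.43 CPM (SD, n = 6) in controls and 2.64 ± 0.54 CPM in *ChAT-BKO* libraries at ZT8, and at 8.73 ± 1.18 and 1.92 ± 0.52 CPM at ZT20, with no overlap between genotypes at either time. A pair of library features touches the results that follow. The summed level of 20 skeletal muscle markers reached 34.6 to 152 CPM in *ChAT-BKO* libraries at ZT20 against 34.1 to 66.9 CPM in controls at that time, and 1 *ChAT-BKO* library at ZT8 was at 244 CPM. The libraries also differed in their length slope, which is the slope of log2 CPM on log2 exon length over 13223 genes and ran from 0.16 to 0.37, so that short transcripts made up a larger share of some libraries than of others.

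*Sprr1a* and the 2 members whose levels moved with it across libraries, *Atf3* and *Gal*, are shown with the sequence upstream of their transcription start (RefSeq, GRCm38.p6, 5′ to 3′ on the gene's strand, all on the minus strand), since JUN and ATF3 bind DNA as AP-1 and CRE type dimers and BMAL1 binds E-boxes. Capitals mark matches to any of 4 motifs searched on both strands, namely TGANTCA (AP-1), TGACGTCA (CRE), CACGTG (E-box) and TTATGTAA (D-box).
Sprr1a, chr3:92485896-92486131: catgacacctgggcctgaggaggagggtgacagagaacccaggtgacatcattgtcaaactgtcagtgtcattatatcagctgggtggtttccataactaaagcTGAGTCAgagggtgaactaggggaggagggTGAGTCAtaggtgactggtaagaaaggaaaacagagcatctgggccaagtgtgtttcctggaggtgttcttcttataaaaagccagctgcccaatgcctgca
Atf3, chr1:191183341-191183583: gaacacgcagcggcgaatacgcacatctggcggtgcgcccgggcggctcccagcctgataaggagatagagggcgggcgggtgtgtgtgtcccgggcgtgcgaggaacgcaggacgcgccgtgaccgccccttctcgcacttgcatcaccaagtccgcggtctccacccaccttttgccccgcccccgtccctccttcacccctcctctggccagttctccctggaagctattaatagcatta
Gal, chr19:3414545-3414794: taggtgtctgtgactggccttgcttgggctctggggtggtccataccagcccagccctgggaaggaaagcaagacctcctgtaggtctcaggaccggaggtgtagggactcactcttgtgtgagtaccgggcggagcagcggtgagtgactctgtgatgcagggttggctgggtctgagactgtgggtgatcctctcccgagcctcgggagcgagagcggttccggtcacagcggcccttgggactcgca
The *Sprr1a* sequence ends 14 bases before the start site and the *Atf3* sequence 7 bases before it, so that no annotated exon is shown. The *Atf3* gene is annotated from 191170296 to 191218039, so the start used for it lies inside the gene. Sequence upstream of its outermost start was not searched. The start used for *Ecel1*, whose sequence is not shown, also lies inside the annotated gene. Of the bases searched for *Ecel1*, the 165 nearest the start are annotated exon and 85 lie upstream of the gene. Promoters were found for 6 of the 8 members. In the 250 bases upstream of the start, the AP-1 letters were found for *Sprr1a*, which had them at positions -146 and -116 from the start, and for no other of these 6 members, and 6.75% of all 32841 promoters of that length held such a match. CACGTG was found for 0 of the 6 and for 6.02% of all promoters, TGACGTCA for 0 and 1.55%, and TTATGTAA for 0 and 0.819%. These matches are letters only, and binding was not measured.

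The members differed widely in level. Per kilobase of exon, and averaged over the 24 IP libraries, *Ecel1* was highest at 82.0 CPM per kb, followed by *Gap43* at 62.8, *Stmn4* at 46.9, *Jun* at 46.2, *Gal* at 13.9, *Sprr1a* at 3.49, *Atf3* at 1.08 and *Sox11* at 0.907. Of the neighbours in this order, *Jun* (41.0 to 53.0 CPM per kb over the libraries) and *Gal* (8.84 to 23.5) were the 1 pair whose ranges did not overlap. *Ecel1* (68.7 to 97.8) overlapped *Gap43* (49.9 to 78.3), which overlapped *Stmn4* (35.2 to 60.8), and *Stmn4* spanned the range of *Jun*. *Sprr1a* (0.583 to 12.0) overlapped *Gal* and *Atf3* (0.341 to 3.00), and both *Sprr1a* and *Atf3* spanned the whole range of *Sox11* (0.696 to 1.13). The spread between libraries had a different order. *Jun* varied least, with its highest library at 1.29 times its lowest, *Ecel1* varied 1.42-fold, *Gap43* 1.57-fold, *Sox11* 1.62-fold, *Stmn4* 1.73-fold and *Gal* 2.65-fold, whereas *Atf3* varied 8.80-fold and *Sprr1a* 20.6-fold. The last 2 rest on few counts, from 3 to 60 per library for *Atf3* and from 5 to 104 for *Sprr1a*.

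**Figure D1:**
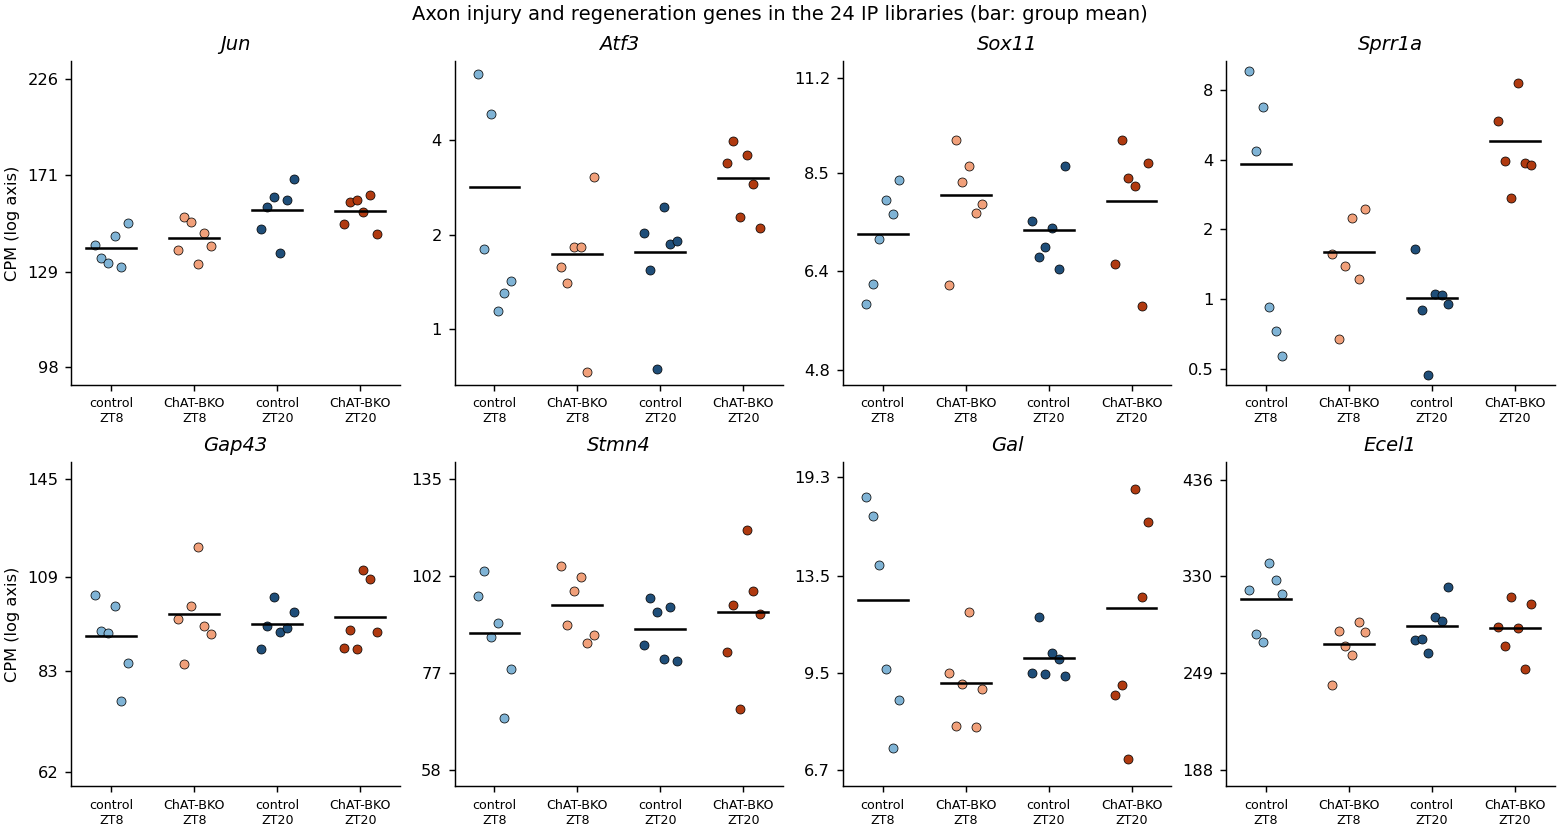
CPM of each member (log axis, a scale per panel) in the 6 libraries of each condition, with the group mean as a bar. *Sprr1a* in the 6 *ChAT-BKO* libraries at ZT20 lies above all 6 controls of that time, while *Sprr1a*, *Atf3* and *Gal* spread widely within the controls at ZT8.

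In the pooled input, *Ecel1* and *Jun* were lower than in every IP library. *Ecel1*, a membrane metallopeptidase, had a median log2 ratio of IP over input of 2.44 (range 2.18 to 2.69 over 24 libraries), and *Jun* had 1.65 (1.45 to 1.84). *Gal* was also above the input in 24 of 24 libraries, with a median of 0.53 and 49 counts in the input. *Gap43* and *Stmn4* were below the input in all 24, with medians of -0.50 and -0.99. *Sox11* had a median of -0.03 and was above the input in 9 of 24, and *Atf3* had -0.95 and was above it in 3 of 24. *Sprr1a* had 0.25 and was above it in 14 of 24. By condition, the median of *Sprr1a* was 0.54 in controls and 0.12 in *ChAT-BKO* at ZT8, and -0.43 and 1.54 at ZT20. The input held 10 counts of *Sprr1a* (1.35 CPM, 95% exact Poisson interval 0.648 to 2.49) and 27 of *Atf3* (3.65 CPM, interval 2.41 to 5.31), and such intervals cover counting error only. As 1 pooled input was sequenced, these ratios have no replicate check on the input side, and no test was made. When TMM factors were computed with the input, every ratio shifted upward, with *Gap43* at -0.05, *Sox11* at 0.41 and *Sprr1a* at 0.70, so that the sign for *Sox11* depended on the scaling.

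**Figure D2:**
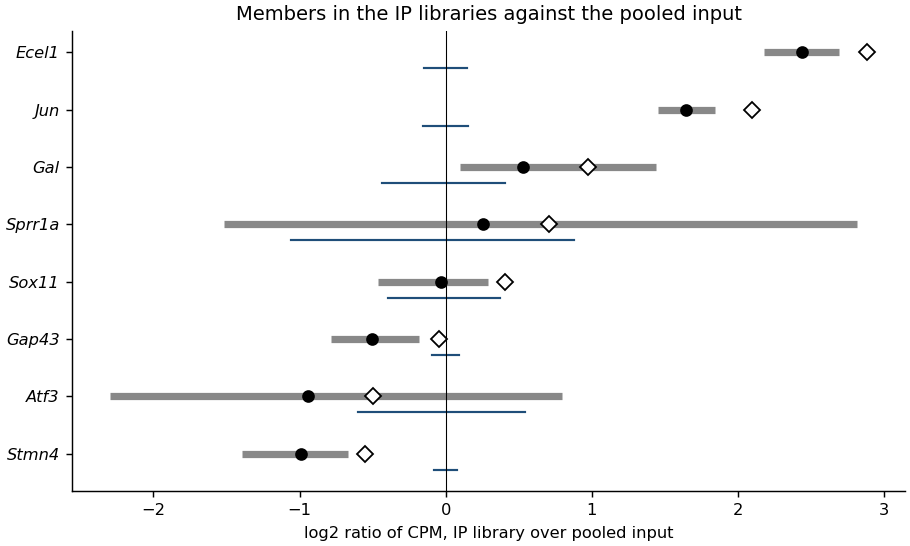
Log2 ratio of CPM in the IP libraries over the pooled input for each member. Grey bars span the 24 IP libraries, filled circles are their medians on total counts, open diamonds are medians with TMM factors that include the input, and thin blue lines are the 95% counting interval of the input value; *Ecel1* and *Jun* lie to the right of 0 in all libraries, *Gap43* and *Stmn4* to the left.

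Whether loss of BMAL1 changed these genes in the light period was asked at ZT8. None of the 8 members was called at an adjusted p under 0.05 (edgeR, quasi-likelihood test, Benjamini-Hochberg over 21738 genes), against 0.184% of all genes tested, and 2 had an unadjusted p under 0.05, against 4.83% of all genes. DESeq2 and limma voom also called 0. Their median log2 fold change was -0.07, and that of all genes was 0.00013.

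*Ecel1* ran from 272 through a median of 315 to 342 CPM in controls at ZT8 and from 241 through 275 to 289 CPM in *ChAT-BKO* libraries. The ranges overlap, with 3 of 6 *ChAT-BKO* libraries below all controls, and the log2 fold change was -0.18 (SE 0.07, unadjusted p = 0.011, edgeR adjusted p = 0.792). With the length slope as a covariate this difference was called, at a log2 fold change of -0.20 (adjusted p = 0.00618). *Gal*, the galanin precursor, had a log2 difference of -0.41 (SE 0.19, edgeR adjusted p = 1) and *Sprr1a* one of -1.14 (SE 0.55, 95% interval -2.29 to 0.0069, adjusted p = 1), while *Atf3* had -0.50 (SE 0.40). Without control replicate 1, *Sprr1a* was at -0.64 and *Atf3* at -0.084, and limma voom gave -0.38 and -0.19. With the length slope as a covariate *Sprr1a* was at -0.76.

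These 3 genes varied widely within the controls. *Sprr1a* was at 9.68, 4.36 and 6.74 CPM in control replicates 1, 2 and 3 at ZT8, and at 0.923, 0.726 and 0.569 CPM in replicates 4, 5 and 6. *Gal* was at 17.9, 16.7 and 14.1 CPM in the same 3 libraries and at 9.67, 7.26 and 8.62 CPM in the other 3. *Atf3* was at 6.46 and 4.83 CPM in replicates 1 and 3, and between 1.14 and 1.80 CPM in the remaining 4. The length slope was lower in replicates 1, 2 and 3 (0.16 to 0.19) than in replicates 4, 5 and 6 (0.25 to 0.36), whereas the muscle markers were not arranged this way, at 34.6, 160 and 84.2 CPM in replicates 1 to 3 and 31.1, 50.2 and 74.0 CPM in replicates 4 to 6. The part of either in the high values was not tested. In *ChAT-BKO* libraries at ZT8, *Sprr1a* ran from 0.673 through 1.48 to 2.45 CPM, within the range of the controls.

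The other members lay closer together at this time. *Jun*, the AP-1 subunit, had a log2 fold change of 0.05 (SE 0.05), *Gap43*, which organizes the growth cone membrane, 0.10 (SE 0.08), *Stmn4*, a stathmin that binds tubulin, 0.12 (SE 0.09), and *Sox11*, a SoxC transcription factor, 0.17 (SE 0.13). Their 95% intervals reached at most 0.16, 0.27, 0.30 and 0.44, respectively, and each had an adjusted p of 1 from edgeR.

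The same question was asked at ZT20, in the dark period, and *Sprr1a*, a small proline-rich protein of the skin barrier that injured sensory and motor neurons also make, was higher in *ChAT-BKO*. In controls at ZT20 it ran from 0.470 through a median of 1.00 to 1.65 CPM. In *ChAT-BKO* libraries it ran from 2.75 through 3.91 to 8.58 CPM. Each of the 6 *ChAT-BKO* values exceeded every control value of ZT20, as was true of 0.359% of all genes tested. Controls at ZT8, however, reached up to 9.68 CPM, so such levels also occurred in control mice. The means were 1.01 ± 0.38 and 4.80 ± 2.11 CPM (SD, n = 6 each), and *Sprr1a* rose by a log2 fold change of 2.19 (SE 0.28, 95% interval 1.60 to 2.78, edgeR adjusted p = 0.000326), the 15th smallest p of 21738 genes. An exact permutation test of the mean log2 CPM (two-sided) gave p = 0.00216, the smallest that 6 against 6 libraries allow. After adjustment over the 32 tests of members it was 0.0346. This p follows from the separation of the libraries and adds nothing to it. The members were chosen with earlier results of these data known, so adjustment over 32 tests does not cover the genes passed over. *Sprr1a* was the 1 member of 8 called, against 0.23% of all genes. With *Atf3* it was 1 of 2 with an unadjusted p under 0.05, against 6.28%.

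The increase of *Sprr1a* at ZT20 was present in all 12 fits that left out 1 library, with log2 fold changes of 1.96 to 2.38 and adjusted p of 2.38e-05 to 0.00221. With all 24 libraries in the fit it was 2.20, closer to the threshold (edgeR adjusted p = 0.0429). Muscle markers were higher in *ChAT-BKO* libraries at this time. With their mean as a covariate the log2 fold change was 2.62 (adjusted p = 6.53e-05), and without the 3 *ChAT-BKO* libraries richest in them, an alternative chosen after seeing the data, it was 2.40 (adjusted p = 0.000226). The highest *Sprr1a* level, 8.58 CPM, was in replicate 4, which had the lowest muscle markers of the 6, at 34.6 CPM, and the next highest, 5.86 CPM, was in replicate 1, which had the highest, at 152 CPM. *Sprr1a* is itself a keratinocyte gene. Of 8 keratinocyte markers, 5 passed the count limit, and their summed level was 22.1 to 31.4 CPM in *ChAT-BKO* libraries and 25.8 to 31.0 CPM in controls at ZT20, and *Krt5*, a basal keratin, was among the 3 that did not pass. Of the 5 that passed, 2 had a median above the input. Whether keratinocytes added to the *Sprr1a* counts was not tested. The 8 markers of dorsal root ganglion sensory neurons, which also make *Sprr1a* after injury, were at 14.4 to 24.1 CPM and 10.8 to 30.0 CPM, respectively. The other genes of the *Sprr* family had 40 counts over the 24 libraries, against 746 for *Sprr1a*, and the near relative *Sprr1b* had 0. In ribosome-bound mRNA of a whole cord, more cells with the transcript and more transcript per cell cannot be told apart.

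*Atf3*, a stress-induced transcription factor, ran from 0.751 through 1.89 to 2.44 CPM in controls and from 2.09 through 3.14 to 3.96 CPM in *ChAT-BKO* libraries at ZT20. Of the *ChAT-BKO* libraries, 4 of 6 lay above all controls. The log2 fold change was 0.76 (SE 0.23, 95% interval 0.28 to 1.23, unadjusted p = 0.00356), and it did not pass adjustment (edgeR adjusted p = 0.368).

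*Gal* at ZT20 was narrow in controls, from 9.41 to 11.6 CPM, and wide in *ChAT-BKO* libraries, in which 3 libraries (6.97 to 9.11 CPM) lay below all controls and 3 (12.5 to 18.5 CPM) above them. Its log2 fold change was 0.18 (SE 0.18, adjusted p = 0.912). The 3 low libraries had length slopes of 0.31, 0.26 and 0.37, and the 3 high ones 0.17, 0.20 and 0.22. For *Jun* (-0.01, SE 0.06), *Gap43* (0.02, SE 0.06), *Ecel1* (-0.01, SE 0.06), *Stmn4* (0.05, SE 0.09) and *Sox11* (0.12, SE 0.13) the log2 fold changes were smaller than their SE. All had adjusted p of at least 0.921 from edgeR, and the upper 95% limits of *Jun*, *Gap43* and *Ecel1* were 0.11, 0.15 and 0.11.

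**Figure D3:**
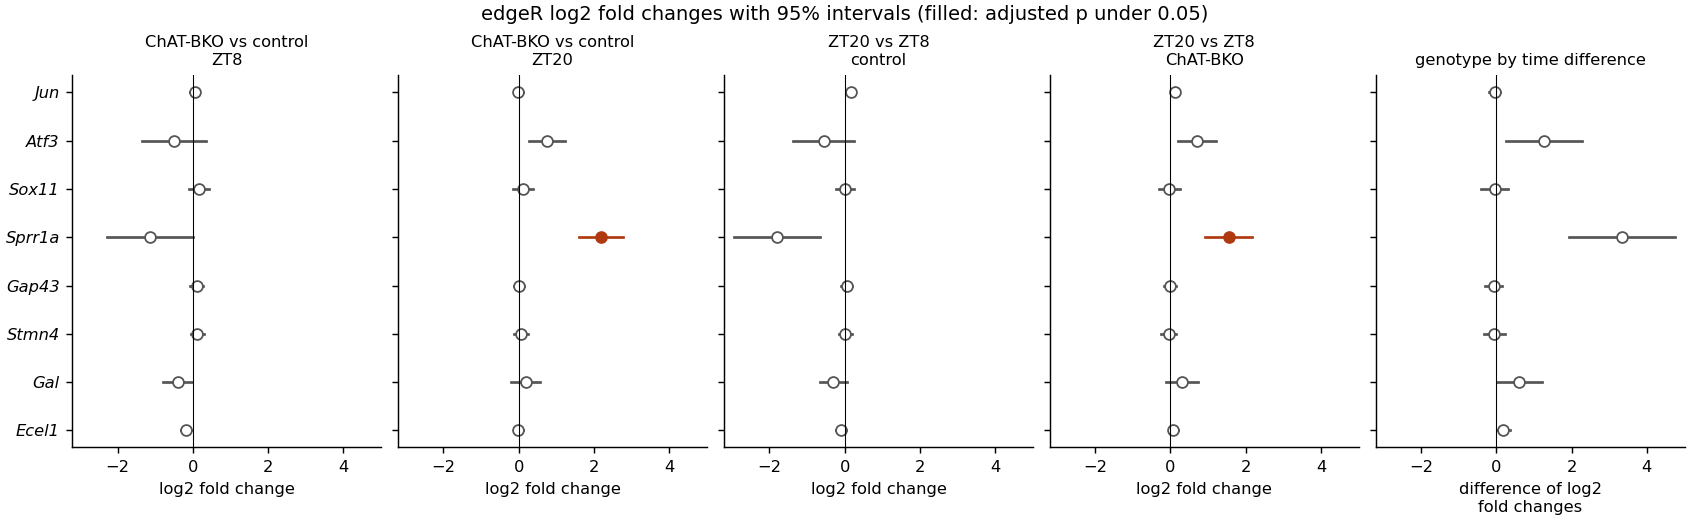
Log2 fold change of each member (circles) with its 95% interval (lines) from edgeR in the 4 comparisons of 2 groups, and the difference of the genotype effects (ZT20 minus ZT8) on the right; filled red circles have an adjusted p under 0.05. *Sprr1a* is filled at ZT20 (2.19) and between times in *ChAT-BKO* (1.54) and has the widest intervals elsewhere.

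The comparisons of ZT20 with ZT8 asked how each genotype differed between light and dark, and they use the same libraries as the comparisons above. In controls, 0 of 8 members were called, against 0.115% of all genes, and 2 had an unadjusted p under 0.05, against 8.25%. DESeq2 and limma voom called 0 members as well. *Jun* ran from 131 through 137 to 149 CPM at ZT8 and from 136 through 157 to 169 CPM at ZT20, a log2 fold change of 0.16 (SE 0.06, edgeR adjusted p = 0.437), with 4 of 6 libraries at ZT20 above all of ZT8. *Sprr1a* had a log2 difference of -1.80 (SE 0.55, edgeR adjusted p = 0.344), in which the 3 high libraries at ZT8 stood against none at ZT20. *Atf3* (-0.55, SE 0.39) and *Gal* (-0.30, SE 0.17) had the same sign. Without control replicate 1 of ZT8, *Atf3* was at -0.13, and limma voom gave -0.25 for *Atf3* and -0.97 for *Sprr1a*.

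In *ChAT-BKO* neurons, *Sprr1a* was called and was higher at ZT20, against 0.285% of all genes called, and with *Atf3* and *Jun* it was 1 of 3 members with an unadjusted p under 0.05, against 9.42%. It ran from 0.673 to 2.45 CPM at ZT8 and from 2.75 to 8.58 CPM at ZT20, so the 2 times did not overlap, as for 0.676% of all genes in this direction. The log2 fold change was 1.54 (SE 0.30, 95% interval 0.92 to 2.17, edgeR adjusted p = 0.0289). This call was close to the threshold. It was lost when *ChAT-BKO* replicate 1, 2, 3 or 5 of ZT8 or replicate 1 or 4 of ZT20 was left out (log2 fold change 1.31 to 1.53, adjusted p = 0.0512 to 0.0932), with all 24 libraries in the fit (1.54, adjusted p = 0.151) and with muscle markers as a covariate (1.60, adjusted p = 0.0592).

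*Atf3* ran from 0.734 through 1.70 to 3.05 CPM at ZT8 and from 2.09 through 3.14 to 3.96 CPM at ZT20 in *ChAT-BKO* neurons, which gave a log2 difference of 0.71 (SE 0.24, edgeR adjusted p = 0.285). *Jun* had 0.12 (SE 0.05, adjusted p = 0.491), with 142 ± 7.34 CPM at ZT8 and 154 ± 6.71 CPM at ZT20 (SD, n = 6), and 4 of 6 libraries at ZT20 were above all of ZT8. *Gal* had 0.31 (SE 0.20), *Ecel1* 0.07 (SE 0.06), *Gap43* -0.02 (SE 0.08), *Sox11* -0.03 (SE 0.13) and *Stmn4* -0.04 (SE 0.10), and none of these 5 had an unadjusted p under 0.05.

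The difference between the genotype effects at the 2 times was tested in 1 fit of all 24 libraries. For *Sprr1a* it was 3.34 on the log2 scale (SE 0.69, 95% interval 1.93 to 4.75, unadjusted p = 3.97e-05), the smallest p of all 21738 genes, and it did not pass adjustment (edgeR adjusted p = 0.864). No gene was called in this test (0%), and 848 genes, or 3.9%, had an unadjusted p under 0.05, *Sprr1a*, *Atf3* (1.26, SE 0.50), *Gal* (0.61, SE 0.29) and *Ecel1* (0.18, SE 0.09) among them. DESeq2 and limma voom called 0 genes too. With the length slope as a covariate *Sprr1a* was the 1 gene called, with 3.33 (adjusted p = 0.00972). Both the low levels in *ChAT-BKO* at ZT8 and the 3 high controls at ZT8 enter this difference.

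The members were next compared with each other across the 24 IP libraries, on log2 CPM from which the mean of each condition was removed. Of 28 pairs, 5 passed an adjusted p under 0.05 by Pearson's r (permutation within conditions, 100000 draws, two-sided), all of them positive. The share of other gene pairs that would pass was not computed. *Sprr1a* and *Atf3* had r = 0.80 (adjusted permutation p = 0.00126) and Spearman's rho = 0.80 (adjusted permutation p = 0.00056). Without the 2 libraries farthest from the median of *Atf3*, r was 0.73. *Sprr1a* and *Gal* had r = 0.72 (adjusted permutation p = 0.0153), rho = 0.67 (adjusted 0.0415) and r = 0.64 without the 2 libraries farthest in *Sprr1a*. *Gal* and *Stmn4* had r = 0.82 (adjusted permutation p = 0.00028, rho = 0.78 with 0.00056), *Gap43* and *Stmn4* r = 0.72 (0.00261, rho = 0.74 with 0.0028) and *Gap43* and *Gal* r = 0.67 (0.0153, rho = 0.65 with 0.0299), and r was 0.73, 0.68 and 0.59 without the 2 farthest libraries. *Sox11* and *Ecel1* (r = 0.55, rho = 0.49) and *Ecel1* and *Stmn4* (r = -0.53, rho = -0.57) did not pass by Pearson's r, at adjusted permutation p of 0.0578 and 0.0691, though the latter passed by rho (0.0415). *Jun* had no relation past the threshold with any member.

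**Figure D4:**
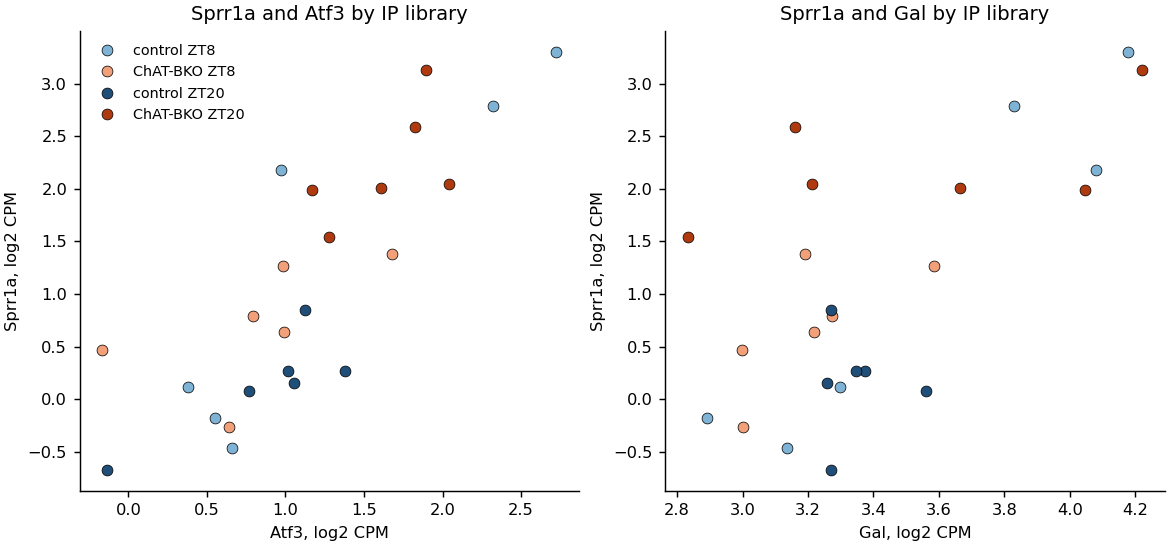
Log2 CPM of *Sprr1a* against *Atf3* (left) and *Gal* (right), 1 point per IP library, coloured by condition. *Sprr1a* is high where *Atf3* is high in the controls at ZT8 and in *ChAT-BKO* at ZT20, and the r of 0.80 and 0.72 were computed after the mean of each condition was removed.

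The 6 controls at ZT8 held 3 high and 3 low libraries of *Sprr1a*. Without these 6, an alternative chosen after seeing the data, r of *Sprr1a* with *Atf3* was 0.66 over 18 libraries (adjusted permutation p = 0.0575, rho = 0.78 with 0.0084), that of *Sprr1a* with *Gal* was 0.47 (adjusted permutation p = 0.239), and 0 of the 28 pairs passed by Pearson's r. No relation of the 8 members with the mean of the muscle markers passed the threshold, with r between -0.23 and 0.14 and adjusted permutation p of at least 0.925.

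The length slope, in contrast, moved with 5 of the 8 members. The share of all genes that moved with it was not computed, so this count is not shown to be particular to the members. *Stmn4* had r = -0.91 and *Gal* r = -0.87 with it (adjusted permutation p = 4e-05 each, from 1e-05, the smallest that the draws allow, rho = -0.87 each), and without the 2 farthest libraries r was -0.84 and -0.83. *Gap43* had r = -0.72 (adjusted permutation p = 0.00107, rho = -0.75), *Sprr1a* r = -0.54 (0.0337, rho = -0.50) and *Ecel1* r = 0.60 (0.0124, rho = 0.60). For *Sprr1a*, rho did not pass (adjusted 0.0564). These 8 relations were added after seeing the data, and the members' own exon lengths run from 788 bases for *Gal* and 806 for *Sprr1a* to 8311 for *Sox11*. Once the slope was removed, *Sprr1a* and *Atf3* kept r = 0.78 (adjusted permutation p = 0.0042), *Sprr1a* and *Gal* had 0.59 (0.0704), and *Gal* and *Stmn4* fell to 0.13 (0.908), *Gap43* and *Stmn4* to 0.21 (0.747) and *Gap43* and *Gal* to 0.11 (0.908).

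**Figure D5:**
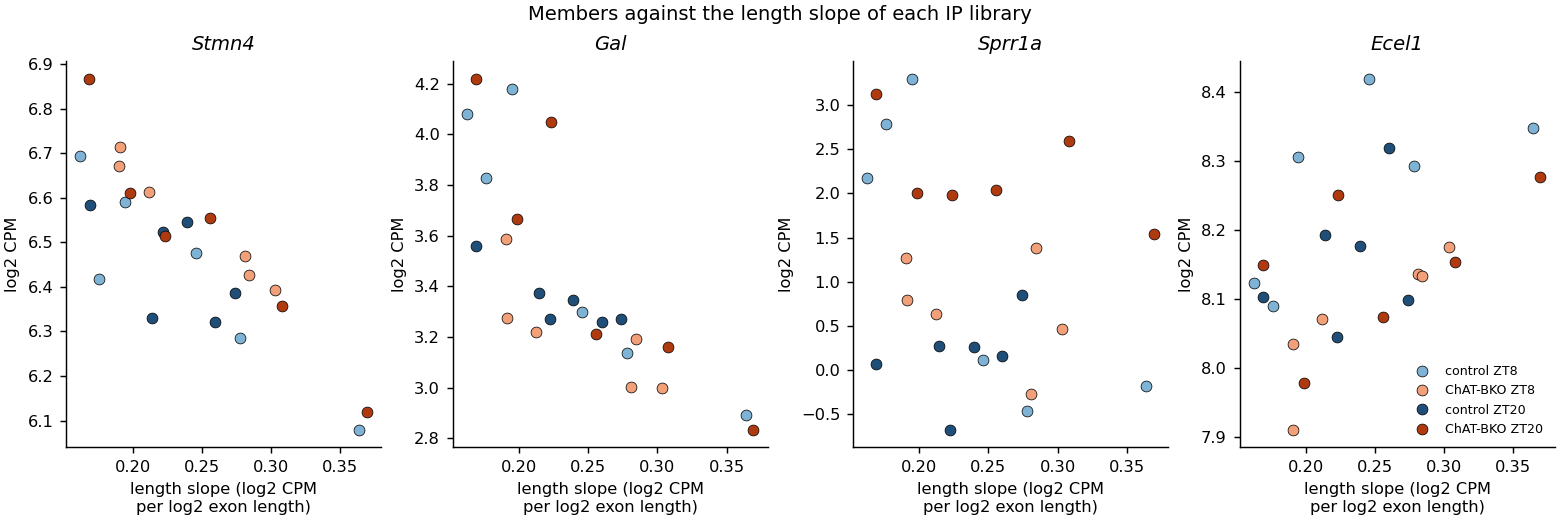
Log2 CPM of *Stmn4*, *Gal*, *Sprr1a* and *Ecel1* against the length slope (log2 CPM per log2 exon length) of each of the 24 IP libraries, coloured by condition. *Stmn4* and *Gal* fall and *Ecel1* increases along the slope, with r of -0.91, -0.87 and 0.60 after condition means are removed, while *Sprr1a* is scattered (-0.54).

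Among 10429 genes with a mean of at least 5 CPM, those whose pattern over the 24 libraries was most like that of *Sprr1a*, by the same r, were *Taf6l* (0.82), *Igh* (0.79) and *Ebag9* (0.76). *Taf6l* was thus slightly closer to *Sprr1a* than *Atf3* was (0.80). For *Atf3*, *Stx1a* (0.75), *Srp54c* (0.71) and *Rnf113a1* (0.70) came first. None reached its r with *Sprr1a*, but *Sprr1a*, with a mean of 2.81 CPM, and other genes below 5 CPM were outside this search. *Gal* was most like *Rpl19* (0.93), *Nudt22* (0.93) and *Hspb1* (0.93), *Stmn4* like *Pqbp1* (0.95), *Gpat4* (0.95) and *Arl6ip4* (0.95), and *Gap43* like *Pkm* (0.87), *Ngef* (0.86) and *Aimp2* (0.86). *Ecel1* was most like *Dele1* (0.90), *Dhcr7* (0.88) and *Plekhd1* (0.85), *Sox11* like *Pigo* (0.74), *Trip11* (0.73) and *Dusp3* (0.73), and *Jun* like *Zfyve26* (0.65), *Gjb6* (0.61) and *Pomt2* (0.60).

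The wider program around the members was read from 6 role lists with 109 genes, of which 105 were tested. The lists were written with earlier results of these data known, so their share of calls beside that of all genes is no test of enrichment. In *ChAT-BKO* against control, 2 of the 105 were called at ZT8 and 3 at ZT20, all higher, against 0.129% and 0.189% of all genes called higher, and the median log2 fold changes were -0.03 and 0.02. Between times, 0 were called in controls and 2 in *ChAT-BKO*, both higher (0.23% of all genes). None was called in the test of the difference.

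Of 19 injury transcription factors, *Nfil3*, a bZIP repressor that is also a clock output, rose in *ChAT-BKO* at both times. At ZT8 the control libraries had 5.96 ± 0.63 CPM and the *ChAT-BKO* libraries 11.5 ± 1.34 CPM (a log2 ratio of 0.95, SE 0.11, with edgeR adjusted p = 9.45e-05), and at ZT20 they had 7.72 ± 1.11 and 14.9 ± 1.13 CPM (0.96, SE 0.10, edgeR adjusted p = 2.7e-05). *Fos*, a partner of JUN in AP-1, rose from ZT8 to ZT20 in *ChAT-BKO*, from 19.4 ± 6.37 to 37.2 ± 5.89 CPM (0.93, SE 0.18, adjusted p = 0.0267), and the call was lost in 6 of 12 fits that left out 1 library, under limma voom and without the 3 *ChAT-BKO* libraries richest in muscle markers (adjusted p = 0.125). In controls *Fos* went from 19.4 ± 3.93 CPM at ZT8 to 25.9 ± 4.54 CPM at ZT20 (0.43, SE 0.13, edgeR adjusted p = 0.332). The other 17 factors were not called in any comparison. Of 23 other injury-induced genes, 21 were tested. *Cdkn1a*, a cell cycle inhibitor, was called higher in *ChAT-BKO* at ZT8 (2.10, SE 0.14) and ZT20 (1.77, SE 0.15). It was also called between times in *ChAT-BKO*, where it rose from 13.4 ± 1.48 to 20.0 ± 2.62 CPM (0.56, SE 0.10, adjusted p = 0.016). In controls *Cdkn1a* went from 3.15 ± 0.80 to 5.88 ± 1.54 CPM (0.89, SE 0.20), which was not called (edgeR adjusted p = 0.126). The higher level at ZT20 was thus seen in both genotypes. *Itga7*, a laminin receptor subunit, had 0.21 at ZT20 (SE 0.06, adjusted p = 0.332).

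Of 20 growth cone and microtubule genes, *Tubb6*, a beta-tubulin, was called at ZT20, from 18.5 ± 3.02 CPM in controls to 26.1 ± 2.66 CPM in *ChAT-BKO* (0.48, SE 0.10, edgeR adjusted p = 0.046). It was not called with muscle markers as a covariate (0.39, adjusted p = 0.7), without the 3 libraries richest in them (0.41, adjusted p = 0.395), under limma voom (0.49, adjusted p = 0.0506) or in 9 of 12 fits that left out 1 library. *Marcks* in the same list had 0.25 between times in controls (SE 0.09, adjusted p = 0.41). The remaining growth cone genes were not called in any comparison.

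In the 15 genes of DLK and JNK signaling, the kinase route to JUN, 0 were called in the edgeR fits without alternatives. *Dusp4*, a MAP kinase phosphatase, had the smallest p, from 1.99 ± 0.47 CPM at ZT8 to 3.64 ± 1.22 CPM at ZT20 in *ChAT-BKO* (0.87, SE 0.22, adjusted p = 0.119), and *Map3k13*, the kinase LZK, followed (0.22, SE 0.08, adjusted p = 0.328). This difference of *Dusp4* was called by DESeq2 (adjusted p = 0.0238). It was also called by edgeR with all 24 libraries in the fit (adjusted p = 0.0352) and with the length slope as a covariate (adjusted p = 0.0351). Of 22 injury peptides, trophic factors and receptors, 20 were tested and 0 called. *Bdnf*, a neurotrophin, had 0.60 between times in controls (SE 0.17, edgeR adjusted p = 0.268), and *Galr2*, a galanin receptor, 0.51 (SE 0.15, adjusted p = 0.28). With the length slope as a covariate *Bdnf* was called (edgeR adjusted p = 0.0413). Of 10 growth restraint genes, 0 were called, and *Klf4* (1.46 between times in *ChAT-BKO*, SE 0.48, adjusted p = 0.272) and *Lingo1* (-0.19 between times in controls, SE 0.10, adjusted p = 0.644) had the smallest p. The level of *Klf4* was very low, at 0.18 ± 0.13 CPM at ZT8 and 0.51 ± 0.30 CPM at ZT20 in *ChAT-BKO*, so its difference rests on few counts.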

How the data were processed

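HA-tagged ribosomes were immunoprecipitated from 1 spinal cord per mouse, and all cords were processed on 1 day. Per the labels and the methods, the authors made polyA libraries with a stranded Illumina kit, aligned reads to mm10 with STAR 2.7.5 and estimated counts with RSEM. The deposited values are expected counts, not normalized. They hold 2220 rows with RefSeq-style names, although the methods name an Ensembl annotation, and the strand setting of the counting is not given in the sources used here, so that *Jun* and the antisense *Junos* may share reads.

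Counts were rounded. Genes with at least 10 counts over the 24 IP libraries (21738) were normalized by TMM and tested with edgeR 4.0.16 (quasi-likelihood, two-sided, Benjamini-Hochberg, threshold 0.05), on the 12 libraries of each comparison or on all 24 for the difference of effects. The SE came from the F statistic. Log2 CPM had a prior count of 2. Exon lengths and positions came from GENCODE (GRCm38, the assembly of mm10), which matched 74.8% of the rows. In simulations at the depths of these libraries, 200 of 21738 genes were changed by log2 1.5. There edgeR recovered 95% of them at ZT20 and 92.5% in the test of the difference. Over the 5 comparisons 4.35% (time in controls) to 7.18% (ZT8) of its calls were false. The lowest genes were left out when changed genes were drawn. Noise was drawn separately for each gene, without the muscle content or length slope that vary between the real libraries. The recovered shares therefore need not hold for the real data.

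Members, lists, named genes and alternatives were chosen with earlier results of these data known. The genes named were the 8 members, *Arntl*, every list gene called in any comparison, the 2 genes of each list with the smallest unadjusted p, and the 3 genes most like each member. Alternatives were DESeq2 1.42.0, its size factors in edgeR, no filter, filterByExpr, limma 3.58.1 voom with quality weights, replicate number as a block, all 24 libraries in each fit, muscle markers or the length slope as a covariate, TMM with the input, a prior count of 0.5 and each library left out.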

Additional observations from a re-analysis of the deposited data

Results flagged for a closer look

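*Gal* in control replicate 2 at ZT20 was at 11.6 CPM, apart from the other 5 libraries of its condition (9.41 to 10.2 CPM), with a gap of 0.64 of the range of the 6. It was the 1 such library among the 32 sets of 6 examined (8 members in 4 conditions), and chance alone is expected to mark about 1 in 20 sets. Its length slope was 0.17, the lowest of the 6.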

How the results depend on the processing

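*Sprr1a* at ZT20 was called higher in *ChAT-BKO* under every alternative run, with adjusted p from 3.77e-10 (DESeq2) to 0.0429 (all 24 libraries in the fit). Its call between times in *ChAT-BKO* was lost (0 members called) with all 24 libraries in the fit and with muscle markers as a covariate. With the length slope as a covariate, 1 member (*Ecel1*) was called lower at ZT8 and 1 gene of all (*Sprr1a*) in the test of the difference. The cause of these and the following changes was not tested.

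Counts of all genes called moved more, and each pair is given as higher and lower in the order ZT8, ZT20, time in controls and time in *ChAT-BKO*, beside 28 and 12, 41 and 9, 21 and 4, and 50 and 12. DESeq2 gave 48 and 22, 78 higher, 73 and 54, and 140 and 85. The length slope gave 112 and 52, 122 and 46, 199 and 160, and 285 and 200. With muscle markers as a covariate 11 were called higher and 5 lower at ZT20 and 5 lower between times in *ChAT-BKO*, and without the 3 libraries richest in them 18 were higher at ZT20. In controls between times filterByExpr gave 7 lower and limma voom 8 lower. In *ChAT-BKO* between times filterByExpr gave 21 lower and the fit of all 24 libraries 104 and 36. Leaving out 1 library gave 12 to 31 and 7 to 12 at ZT8, 23 to 57 higher at ZT20, 9 to 25 and 1 to 5 in controls, and 25 to 46 and 7 to 14 in *ChAT-BKO*, where 0 to 1 members were called.

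Genes of the role lists called in any comparison of 2 groups numbered 2 injury transcription factors, 1 growth cone gene, 1 other injury-induced gene and 0 in the other 3 lists. With the length slope they were 4 transcription factors, 1 DLK and JNK gene, 4 peptides and receptors, 3 other injury-induced genes and 2 restraint genes. Limma voom, and leaving out the 3 muscle-rich libraries, gave 1 transcription factor and 0 growth cone genes, and muscle markers as a covariate gave 0 growth cone genes. DESeq2 and the fit of all 24 libraries each gave 1 DLK and JNK gene (*Dusp4*). Leaving out 1 library gave 1 to 2 transcription factors and 0 to 1 growth cone genes.

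Same-numbered mice of different conditions showed little shared deviation (r from -0.12 to 0.16 over 36 pairs, 2 of them above 0.1). No pairing by number was seen, but such correlations cannot show that the numbers are unpaired. With replicate number as a block, 47 and 22 genes were called at ZT8, 62 and 24 between times in controls, 51 higher at ZT20, and 1 peptide or receptor gene. The log2 fold change of *Sprr1a* at ZT20 was 2.18 with the block, and 1 member was called at ZT20 and 1 between times in *ChAT-BKO*.

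Signs changed for members that were not called. Without the 3 muscle-rich libraries, *Jun* was at 0.019 at ZT20, *Gap43* at 0.078, *Ecel1* at -0.019 and *Stmn4* at 0.12 between times in *ChAT-BKO*, and the differences of effects were 0.023 for *Gap43* and 0.10 for *Stmn4*. Between times, *Sox11* was at -0.015 in controls under limma voom, *Stmn4* at 0.012 in *ChAT-BKO* with muscle markers as a covariate, and *Gap43* at 0.016 with the length slope. Leaving out 1 library at ZT20 moved *Gap43* from -0.026 to 0.046, *Jun* from -0.045 to 0.018, *Gal* from -0.0049 to 0.33, *Ecel1* from -0.041 to 0.021 and *Stmn4* from -0.031 to 0.13. *Gal* at ZT20 (0.18) was at 0.46 with muscle markers as a covariate, 0.32 with the length slope and 0.087 under limma voom. Leaving out 1 library moved *Sox11* from -0.047 to 0.064 and *Stmn4* from -0.045 to 0.073 between times in controls, *Gap43* from -0.063 to 0.043, *Sox11* from -0.11 to 0.027 and *Stmn4* from -0.13 to 0.029 in *ChAT-BKO*, and the differences of effects from -0.12 to 0.017 for *Sox11* and from -0.14 to 0.019 for *Stmn4*. The difference of effects of *Atf3* (1.26) was 0.83 without control replicate 1 of ZT8.

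With the input in TMM, the median log2 ratios of IP over input were -0.050 for *Gap43*, 2.09 for *Jun*, 0.41 for *Sox11*, 0.97 for *Gal*, 2.88 for *Ecel1* and -0.55 for *Stmn4*. Of the pairs of members, 1 passed with the length slope removed and 0 without the controls at ZT8. The r of *Gap43* with *Gal* ran from 0.59 to 0.74 with 1 library left out and once missed the threshold (adjusted permutation p = 0.0525). The r of the muscle markers with *Sprr1a* was -0.010 with a prior count of 0.5, -0.070 without the controls at ZT8 and -0.11 to 0.21 with 1 library left out, and with *Atf3* -0.25 to 0.051. The few counts of *Atf3* and *Sprr1a* limit what this depth can show for them.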
